A study of Mus musculus with 72 samples.

Results

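Interferon-induced antiviral genes are the genes that cells switch on when interferon signals infection, and 40 of them, chosen by name, were followed across 72 RNA libraries of mouse liver nuclei. The table of 20105 genes held a row for 39 of the 40; Rnf213 was not analysed here. By role, they were 4 transcription factors of the interferon response (Stat2, Irf1, Irf7, Irf9), 4 nucleic acid sensors (Ddx58, which encodes RIG-I, Ifih1, which encodes MDA5, Dhx58 and Zbp1), 3 Ifit genes (Ifit1, Ifit2, Ifit3), 5 oligoadenylate synthetase genes (Oas1a, Oas2, Oas3, Oasl1, Oasl2), and 5 genes of ISG15 conjugation and ADP-ribosylation (Isg15, Usp18, Parp9, Dtx3l, Parp14). The others were 7 interferon-induced GTPases (Gbp2, Gbp3, Gbp7, Igtp, Irgm1, Irgm2, Iigp1), 9 further effectors (Rsad2, Cmpk2, Eif2ak2, Xaf1, Ifi35, Ifi44, Bst2, Samd9l, Trim30a) and 2 chemokines (Cxcl9, Cxcl10). A filter on low counts kept 38 of them in hepatocyte nuclei, where Isg15 did not pass, and 39 in whole liver nuclei.

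The livers came from 36 mice, 4 in each of 9 groups, and each gave 2 libraries, of its hepatocyte nuclei and of all its liver nuclei. All animals, the PBS controls included, carried CAG-Sun1/sfGFP and Albumin-Cre, a tag on the nuclear envelope that the Albumin-driven recombinase turns on in hepatocytes so that their nuclei can be pulled out on beads. BALB/c animals bore C26 cells, taken at pre-cachexia or at cachexia, or NC26 cells, and C57BL/6N animals bore 8025 or MC38 cells; every tumour cohort had its own PBS animals of the same strain. C26 and 8025 cause cachexia, the wasting of body weight in cancer, and the cachectic livers were taken once over 10% of body weight was lost; what defined pre-cachexia is not given in the sources used here. NC26 and MC38 tumours left weight stable. Livers were collected at zeitgeber time 9 h, and no ages are given. Libraries held 8.49 to 56.4 M counts in hepatocyte nuclei and 12.2 to 30.3 M counts in whole liver nuclei. As a check of the fraction labels, the albumin gene Alb stood in hepatocyte nuclei of PBS animals at 92.1% of its whole liver level, the endothelial gene Stab2 at 15.6%, the Kupffer cell gene Clec4f at 15.3% and the leukocyte gene Ptprc at 11.3%. Fewer cells of a type and less RNA per cell cannot be told apart in these bulk samples.

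Type I interferons signal through the receptor chains Ifnar1 and Ifnar2 and the kinases Jak1 and Tyk2 to a complex that holds Stat2 and Irf9 and binds the interferon-stimulated response element (ISRE). Interferon gamma signals through Ifngr1 and Ifngr2, and its response acts at the gamma-activated site (GAS). The liver sees gut-derived microbial products through the portal blood, and both hepatocytes and the resident macrophages, the Kupffer cells, respond to interferons. Usp18 and Socs proteins turn the pathway down again.

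The letters of an ISRE-like motif were searched in the promoters, here the 250 bases before and 50 bases after each start site in RefSeq (GRCm38.p6), of which 33 of the 40 genes had one. A pair of GAAA half-sites with any 2 bases between them, on either strand, stood in 19 of the 33 (57.6%), against 3.99% of 27025 genes with a promoter entry. A GAS-like motif, TTCNNNGAA, which reads the same on both strands, stood in 9 of the 33 (27.3%), against 9.55% of all genes. The windows of 60 bases below were picked among the 19 genes that hold the letters, for genes described further on. Irf7, Irf9, Oasl2, Xaf1 and Cxcl9 are among those searched with no match, and Dhx58, Zbp1, Oas2, Usp18, Parp9, Parp14 and Iigp1 had no promoter entry. Each window lies upstream of the start site, and capitals mark every match to the ISRE-like letters, read on either strand. The windows are Igtp at chr11:58199496-58199555 (plus strand), Irgm2 at chr11:58214888-58214947 (plus strand), Gbp3 at chr3:142559980-142560039 (plus strand), Cxcl10 at chr5:92349068-92349127 (minus strand) and Bst2 at chr8:71537562-71537621 (minus strand), each printed 5′ to 3′ on the strand of its gene:
Igtp: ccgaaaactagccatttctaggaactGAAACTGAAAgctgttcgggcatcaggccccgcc
Irgm2: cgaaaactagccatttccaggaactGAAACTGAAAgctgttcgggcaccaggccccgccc
Gbp3: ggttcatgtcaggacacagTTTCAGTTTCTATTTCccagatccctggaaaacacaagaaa
Cxcl10: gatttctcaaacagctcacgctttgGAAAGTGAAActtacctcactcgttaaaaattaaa
Bst2: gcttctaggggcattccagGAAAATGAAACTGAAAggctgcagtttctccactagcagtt
The windows of Igtp and Irgm2, neighbouring GTPase genes, were equal at 57 of 59 aligned bases. In Gbp3 and Bst2 the capitals cover a pair of overlapping matches, and in Bst2 a GAS-like match overlaps the first of them. Bst2 and Cxcl10 held the motif as the others did. Bst2 was nevertheless lower than in PBS animals at cachexia, and Cxcl10 was lower in whole liver nuclei at C26 cachexia, as given further on. A match of letters is a description of the window and not a measured binding site.

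Within the C26 cohort the members' levels differed between the stages: in hepatocyte nuclei 37 of 38 had a log2 fold change above 0 against PBS before cachexia, and 19 of 38 once animals were cachectic. A score per library, the mean over the members of the difference in log2 CPM (counts scaled to the TMM-normalized library size) from the PBS animals of the same cohort and fraction, serves as a description with no test. In hepatocyte nuclei it lay between −0.214 and 0.240 in C26 PBS animals, between 0.751 and 1.21 in pre-cachexia animals, and at 0.646, −0.314, −0.159 and −0.349 in cachectic animals 1 to 4. Cachectic animal 1 thus stood apart from the other three. It did so in whole liver nuclei as well, where the scores of cachectic animals 1 to 4 were 0.224, −0.655, −0.528 and −0.600, against 0.654 to 0.975 at pre-cachexia and −0.164 to 0.176 in PBS animals. Its libraries held 26.9 M counts in hepatocyte nuclei and 21.0 M counts in whole liver nuclei, within the range of all libraries. The counts of calls at C26 cachexia are therefore given with and without that animal.

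**Figure D1:**
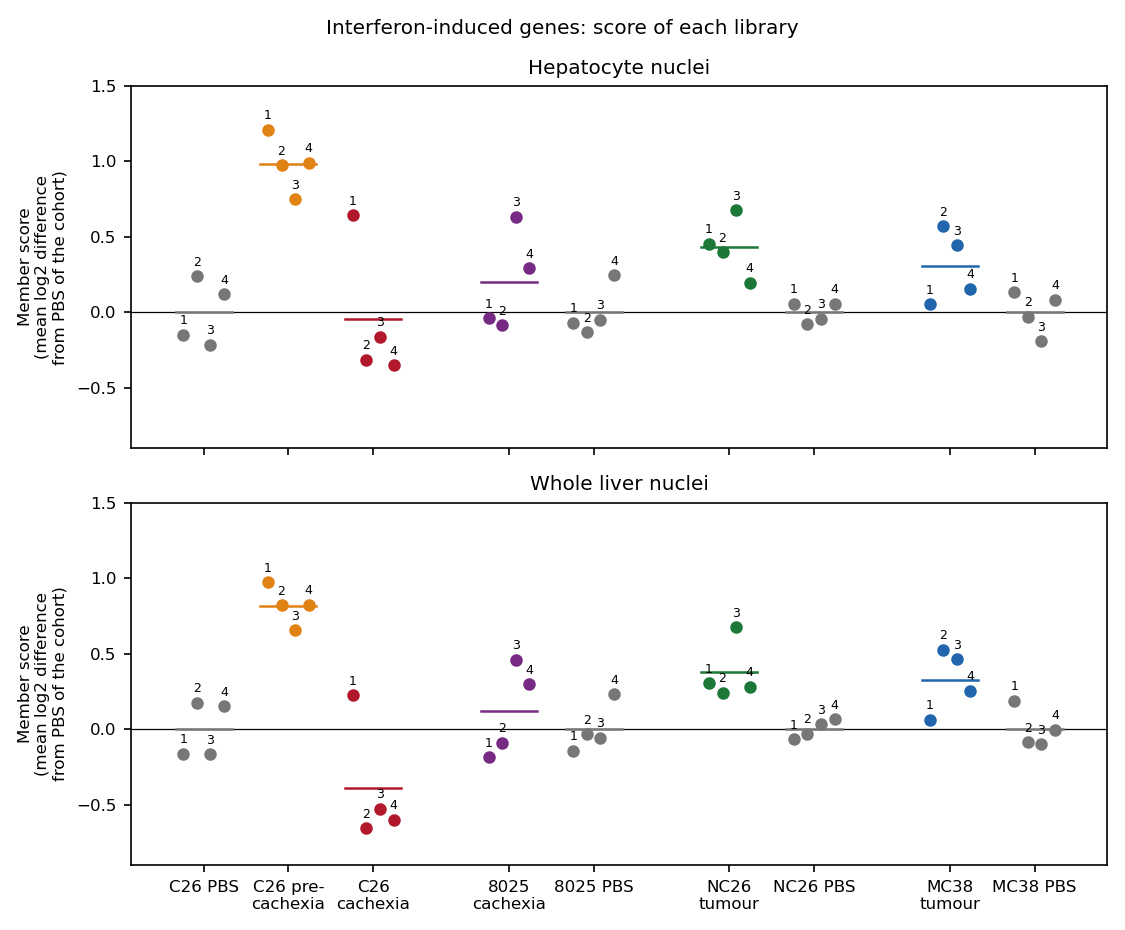
Score of each library (y axis, mean log2 difference from the PBS animals of the cohort) by group (x axis), with replicate numbers above the points and the mean as a bar. The pre-cachexia animals sit between 0.751 and 1.21 in hepatocyte nuclei, and C26 cachectic animal 1 (0.646) lies above the other three.

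Outside that cohort no score in hepatocyte nuclei reached those of the pre-cachexia animals, while in whole liver nuclei the ranges overlapped. In hepatocyte nuclei they were −0.0388, −0.0834, 0.634 and 0.294 in cachectic 8025 animals 1 to 4, so that 2 of the 4 lay above all PBS animals of their cohort (−0.131 to 0.246). NC26 animals had scores of 0.456, 0.400, 0.678 and 0.197, all above their PBS animals (−0.0771 to 0.0594). MC38 animals had 0.0558, 0.572, 0.446 and 0.158, against −0.190 to 0.133 in their PBS animals, with which 1 of the 4 overlapped.

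Before cachexia, 13 of 38 members were higher than in PBS in hepatocyte nuclei of C26 animals and none was lower (edgeR's quasi-likelihood test, adjusted p under 0.05), where 7.72% of all genes were called, 4.78% higher and 2.94% lower. All 4 pre-cachexia values lay above all 4 PBS values in 20 of 38 members, where 6.38% of all genes did. The median log2 fold change was 0.92, beside 0.01 over all genes, and 37 of 38 were above 0; only Bst2 was below it, at −0.31. The interferon-induced GTPases were called in 6 of 7, and the remaining one, Gbp2, had 2.10, 1.38, 0.585 and 1.76 CPM in pre-cachexia animals and 0.326, 0.701, 0.686 and 0.347 CPM in PBS animals (log2 fold change 1.49 ± 0.56, SE, adjusted p = 0.10). Igtp, one of the GTPases, had 55.7, 55.7, 30.8 and 30.8 CPM in pre-cachexia animals, against 8.8, 13.7, 7.76 and 17.3 CPM in PBS animals. All 4 pre-cachexia values lay above all PBS values, and the log2 fold change was 1.86 ± 0.34 (SE, adjusted p = 0.00107).

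Zbp1, a sensor of left-handed double-stranded nucleic acid that can trigger necroptosis, had the largest log2 fold change of the members. It had 38.0, 10.3, 16.6 and 13.6 CPM in hepatocyte nuclei of pre-cachexia animals and 1.58, 2.94, 0.729 and 2.24 CPM in PBS animals, without overlap (log2 fold change 3.37 ± 0.56, adjusted p = 0.000418). Usp18, the protease that removes ISG15 and damps the type I receptor, had 26.8, 26, 13.5 and 20.1 CPM in pre-cachexia animals, against 3.82, 7.36, 4.20 and 5.79 CPM in PBS animals (2.03 ± 0.37, adjusted p = 0.00116). Here too no values overlapped.

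Among the transcription factors 1 of 4 was called. Irf7, the factor that amplifies type I interferon production, had 13.5, 11.3, 9.59 and 8.30 CPM in pre-cachexia animals and 7.17, 6.13, 3.99 and 5.17 CPM in PBS animals (0.93 ± 0.23, adjusted p = 0.0150). The call was lost without pre-cachexia animal 1 or PBS animal 3, with log2 fold changes between 0.78 and 1.05 over the left-out libraries. Stat2, which joins Irf9 in the type I complex, had 178, 136, 172 and 112 CPM in pre-cachexia animals and 155, 141, 107 and 121 CPM in PBS animals, and these overlapped. Irf1, a factor of the interferon gamma response, had 30.4, 29.3, 12.9 and 23.4 CPM, against 16.3, 13.6, 17.7 and 15.0 CPM in PBS animals (0.62 ± 0.25, adjusted p = 0.127). Irf9 had 23.6, 18.4, 24.8 and 16 CPM in pre-cachexia animals and 27.1, 19.0, 16.9 and 15.7 CPM in PBS animals, so that these groups overlapped too.

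Of the other groups in hepatocyte nuclei, 0 of 3 Ifit genes and 0 of 5 Oas genes passed, with median log2 fold changes of 1.14 and 1.0. Ddx58 (0.49), Parp14 (0.92), Eif2ak2 (0.43), which encodes the kinase PKR that halts translation, and Xaf1 (1.86), a protein that promotes cell death, were the further calls besides Irf7, Zbp1, Usp18 and the GTPases. The chemokine gene Cxcl10, whose product attracts T cells, had 0.618, 1.61, 0.585 and 0.692 CPM, against 0.279, 0.245, 0.214 and 0.231 CPM in PBS animals (1.88 ± 0.65, adjusted p = 0.0726). Its values did not overlap, but it lies inside Art3 on the opposite strand, and how strand was used in counting is not stated. Over the 8 fits that each left out 1 library, 9 of the 13 calls were made every time (Zbp1, Usp18, Parp14, Gbp3, Gbp7, Igtp, Irgm1, Irgm2, Xaf1), while Ddx58 lost its call in 7, Eif2ak2 in 6, and Iigp1 without PBS animal 3 (adjusted p = 0.0578).

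Whole liver nuclei of the same pre-cachexia animals gave 22 calls of 39, all higher (8.72% of all genes were called higher and 4.04% lower), among them all 13 called in hepatocyte nuclei. The median log2 fold change was 0.75, beside 0.03 over all genes. All 7 GTPases and 4 of 5 Oas genes were called. In 25 of 39 members all 4 pre-cachexia values lay above all 4 PBS values, where 10.9% of all genes did. Oas3, whose product makes the oligoadenylates that activate RNase L, had 4.69, 4.06, 3.02 and 3.80 CPM in pre-cachexia animals and 0.996, 1.39, 0.974 and 1.17 CPM in PBS animals, with no overlap (1.78 ± 0.39, adjusted p = 0.00302). Zbp1 had 27.2, 10.3, 13.7 and 11.8 CPM, against 1.25, 2.88, 1.66 and 2.64 CPM in PBS animals (2.92 ± 0.43, adjusted p = 4.48e-05). Usp18 had 25.2, 23.8, 14.4 and 22.9 CPM, against 4.77, 7.84, 5.11 and 6.34 CPM in PBS animals (1.84 ± 0.34, adjusted p = 0.000507). For both genes the lowest pre-cachexia value was above the highest PBS value. The calls made in each of the 8 fits without 1 library were 11 of the 22 (Zbp1, Oas3, Oasl2, Usp18, Parp14, Gbp7, Igtp, Irgm1, Irgm2, Iigp1, Trim30a), and the count was 13 without PBS animal 1 or pre-cachexia animal 1 and at most 24, without pre-cachexia animal 3.

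**Figure D2:**
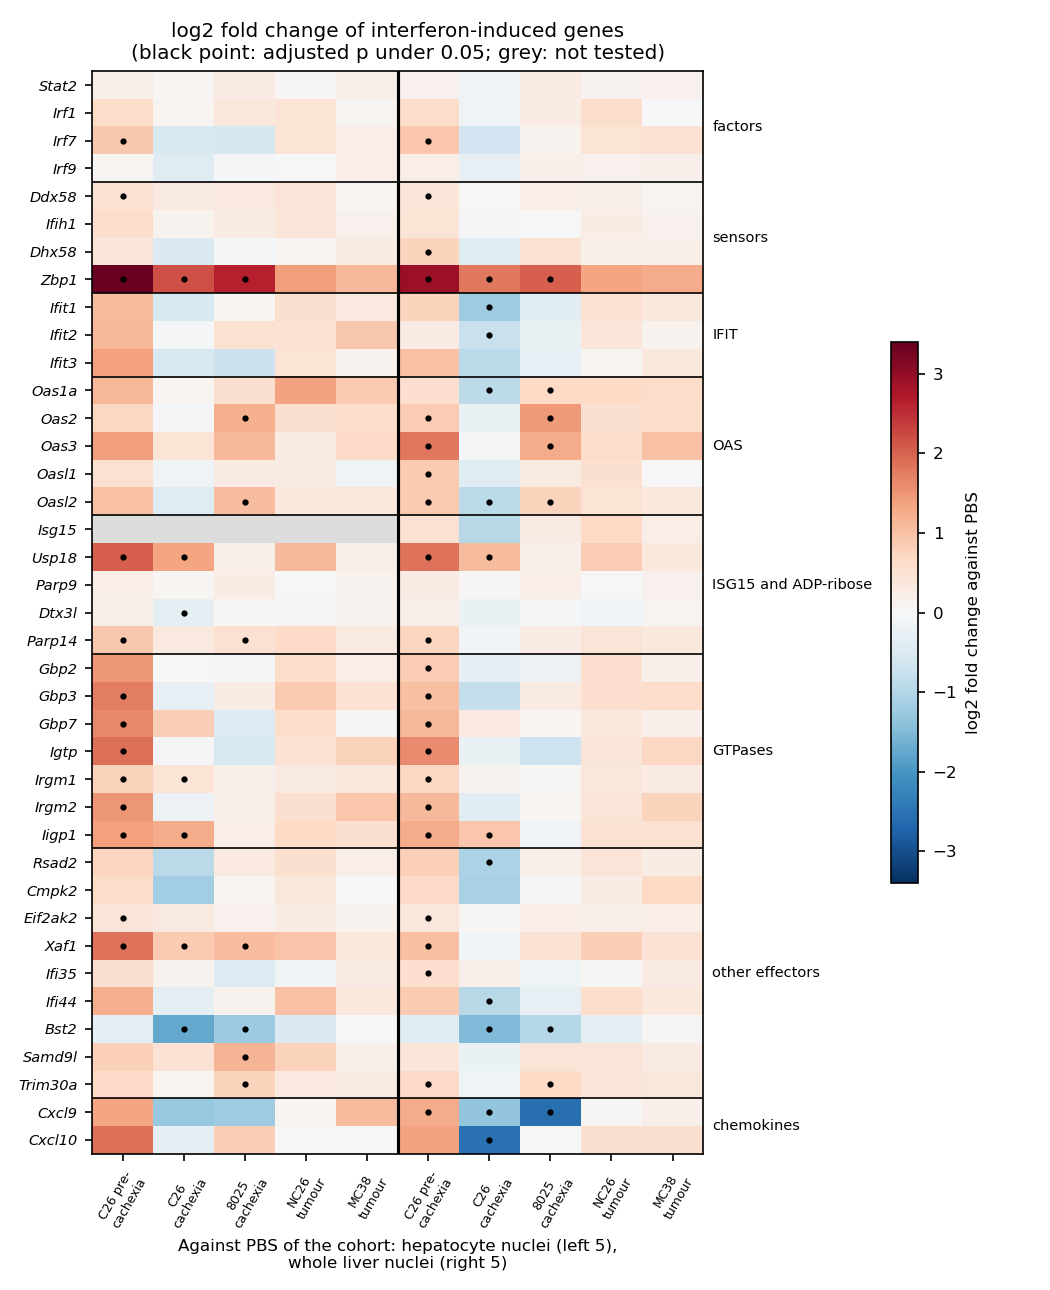
log2 fold change of each member (rows, grouped by role) against the PBS animals of its cohort, for 5 tumour groups in each fraction (columns); a black point marks an adjusted p under 0.05. The pre-cachexia columns are almost entirely red, with Bst2 below 0 (−0.31 in hepatocyte and −0.38 in whole liver nuclei), and the NC26 and MC38 columns hold no black point.

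At cachexia most of these genes were no longer called; the comparison shares its PBS libraries with the one before it, and both fractions come from the same animals. In hepatocyte nuclei of C26 animals 5 members were higher than in PBS (Zbp1, Usp18, Irgm1, Iigp1, Xaf1) and 2 lower (Dtx3l, Bst2). Together they were 7 of 38 or 18.4%, beside 22.2% of all genes called in either direction (12.2% higher and 10% lower). The median log2 fold change was −0.01, with 19 of 38 above 0. Zbp1 had 20.3, 4.90, 7.35 and 2.48 CPM in cachectic animals, set against the PBS values above, with which animal 4 overlapped (2.20 ± 0.54, adjusted p = 0.00367). Without animal 1, its log2 fold change was 1.34 and the call was lost (adjusted p = 0.0635). Usp18 had 15.1, 14.7, 8.28 and 16.3 CPM, all above PBS (1.35 ± 0.37, adjusted p = 0.00828), and kept its call without animal 1 (1.28, adjusted p = 0.0244).

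Bst2, or tetherin, which holds budding enveloped viruses at the cell surface, went the other way. It had 2.60, 4.96, 1.69 and 3.10 CPM in hepatocyte nuclei of cachectic animals and 14.3, 8.48, 9.90 and 8.87 CPM in PBS animals. The groups did not overlap (−1.74 ± 0.29, adjusted p = 6.61e-05), and the log2 fold change was −1.69 without animal 1. Usp18 and Bst2 were the calls made in all 8 fits without 1 library, and the fewest calls, 4, came without cachectic animal 3. Without animal 1 the balance shifted, with 1 member higher (Usp18) and 10 lower (Irf7, Irf9, Dhx58, Oasl2, Isg15, Dtx3l, Rsad2, Cmpk2, Bst2, Cxcl9) of 39 tested and a median of −0.32. Of all genes, 9.08% were then called higher and 7.89% lower. Irgm1 (0.41, adjusted p = 0.0611), Iigp1 (0.92, adjusted p = 0.0710) and Xaf1 (0.34, adjusted p = 0.468) then lost their calls.

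In whole liver nuclei of cachectic C26 animals 3 members were higher (Zbp1, Usp18, Iigp1) and 9 lower (Ifit1, Ifit2, Oas1a, Oasl2, Rsad2, Ifi44, Bst2, Cxcl9, Cxcl10) of 39. Together they were 12, beside 22.1% of all genes called in either direction (11.8% higher and 10.3% lower). The median was −0.23, beside −0.02 over all genes. Ifit1, which binds foreign RNA ends, had 2.39, 0.948, 1.36 and 0.622 CPM in cachectic animals and 2.82, 4.69, 1.8 and 3.29 CPM in PBS animals (−1.22 ± 0.37, adjusted p = 0.0179). Its groups overlapped through cachectic animal 1 and PBS animal 3, and the call was lost without PBS animal 2, cachectic animal 2 or cachectic animal 4, with log2 fold changes between −1.63 and −0.96 over the fits. Bst2 had 4.16, 3.45, 2.84 and 4.90 CPM, against 10.6, 9.07, 11.3 and 12.2 CPM in PBS animals, with no overlap (−1.50 ± 0.24, adjusted p = 3.02e-05). Zbp1 had 14.5, 3.72, 6.86 and 3.96 CPM, all above the PBS values (1.8 ± 0.43, adjusted p = 0.00242; 1.24, adjusted p = 0.0351, without animal 1).

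Cxcl10 had 0.208, 0.0379, 0.0591 and 0.0777 CPM in whole liver nuclei of cachectic animals, against 0.747, 0.320, 0.438 and 0.763 CPM in PBS animals (−2.53 ± 0.77, adjusted p = 0.0165). These are only 4, 1, 1 and 1 counts, against 18, 6, 9 and 13 counts in PBS animals, and the overlap of Cxcl10 with Art3 applies here too. The call was lost without cachectic animal 2 (adjusted p = 0.0638). Isg15, the ubiquitin-like modifier itself, had 0.468, 0.190, 0.177 and 0.155 CPM, against 0.125, 0.480, 0.682 and 0.704 CPM in PBS animals. These groups overlapped (−0.93 ± 0.49, adjusted p = 0.182). Without animal 1, whole liver nuclei had 2 members higher and 13 lower, with a median of −0.48, and Iigp1 lost its call (0.67, adjusted p = 0.138). The shares of all genes called were then 11% higher and 7.6% lower. Without cachectic animal 2 or animal 4 the count of calls was 7 in place of 12, and 5 calls were made in all 8 fits without 1 library (Zbp1, Ifit2, Oas1a, Oasl2, Bst2).

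Set directly against pre-cachexia, cachexia had 17 of 38 members lower in hepatocyte nuclei and none higher (9.09% of all genes were called, 4.27% lower and 4.81% higher), with a median log2 fold change of −0.93. In whole liver nuclei 32 of 39 were lower and none higher (6.94% of all genes were called lower and 4.68% higher), with a median of −1.12. This comparison and the one of pre-cachexia with PBS share the pre-cachexia libraries, so the 2 are not independent. In hepatocyte nuclei the lower members included all 3 Ifit genes, both chemokines and 3 of 7 GTPases, and all 17 were also called in whole liver nuclei. Igtp had 18.5, 10.7, 9.69 and 6.53 CPM at cachexia, all below its pre-cachexia values (−1.94 ± 0.34, adjusted p = 0.000335), and Irf7 had 5.43, 3.45, 4.43 and 2.32 CPM (−1.45 ± 0.24, adjusted p = 0.000176).

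The genes that did not pass in whole liver nuclei were Stat2, Zbp1, Usp18, Parp9, Iigp1, Eif2ak2 and Ifi35. Iigp1, a GTPase that attacks the vacuoles of parasites, is an example with high levels. In hepatocyte nuclei it had 50.0, 77.6, 52.4 and 96.0 CPM in PBS animals, 188, 160, 157 and 225 CPM at pre-cachexia and 270, 94.9, 147 and 155 CPM at cachexia. The cachexia and pre-cachexia values overlapped, with a log2 fold change of −0.13 ± 0.34 (adjusted p = 0.876). That overlap came through cachectic animal 1, since animals 2 to 4 lay below all pre-cachexia values. Without animal 1, Iigp1 was still not called lower than at pre-cachexia in either fraction. Without cachectic animal 1, the count lower than at pre-cachexia in hepatocyte nuclei was 24 and that in whole liver nuclei 33, and Zbp1 was then among them in both (−2.03 and −1.68). Among all genes, 4.6% and 6.96% were then called lower. Leaving out another cachectic animal lowered the count in hepatocyte nuclei to 9 (animal 2), 10 (animal 3) or 8 (animal 4), and 8 of the 17 genes were called in all 8 fits (Irf7, Oasl2, Dtx3l, Gbp3, Igtp, Irgm2, Cmpk2, Bst2). In whole liver nuclei 23 of the 32 were.

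**Figure D3:**
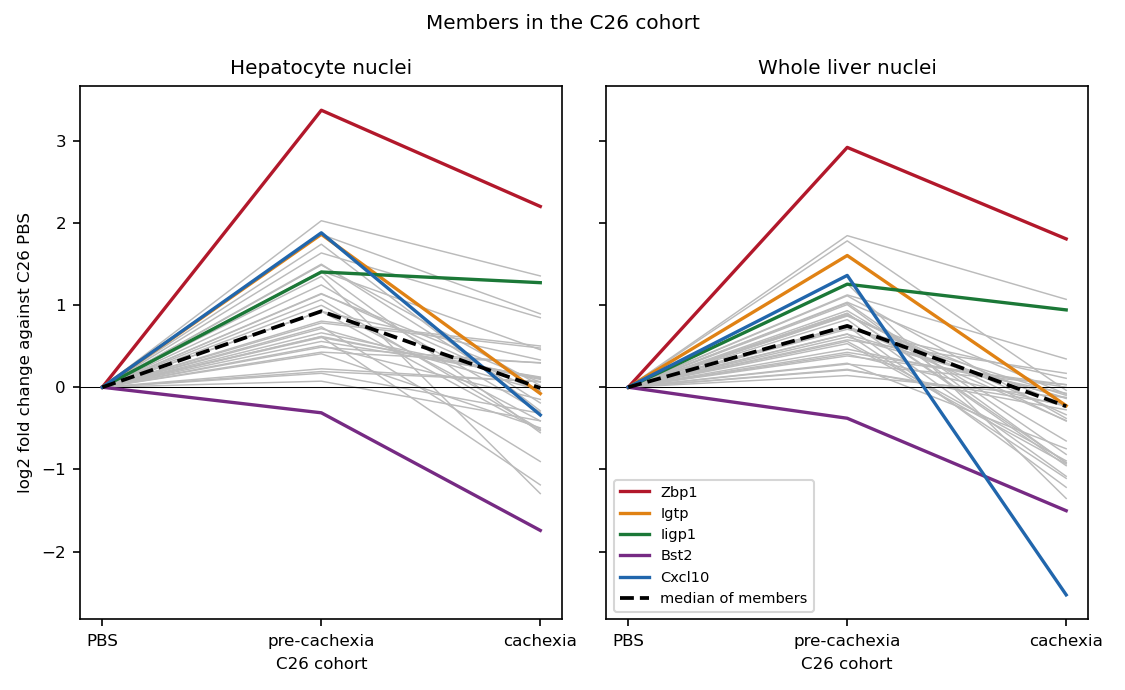
log2 fold change against C26 PBS animals (y axis) of every member at pre-cachexia and at cachexia (x axis, PBS at 0 by definition), with 5 genes in colour and the median dashed. The median is 0.92 and then −0.01 in hepatocyte nuclei, and 0.75 and then −0.23 with all liver nuclei. Iigp1 stays near its pre-cachexia value with cachectic animal 1 included, and the other cachectic animals lie below pre-cachexia in hepatocyte nuclei. Bst2 is below 0 at both stages.

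The other cachexia model, 8025 in C57BL/6N animals, had 7 members higher in hepatocyte nuclei (Zbp1, Oas2, Oasl2, Parp14, Xaf1, Samd9l, Trim30a) and 1 lower (Bst2) of 38. Together they were 8, beside 29.3% of all genes called in either direction (16.2% higher and 13.1% lower). The median log2 fold change was 0.24. Zbp1 had 15.2, 23.8, 30.4 and 23.5 CPM in cachectic 8025 animals, against 2.33, 2.89, 5.06 and 4.97 CPM in PBS animals, without overlap (2.64 ± 0.54, adjusted p = 0.000422). Oas2 had 3.57, 2.47, 3.68 and 5.31 CPM, against 1.6, 1.81, 2.05 and 1.15 CPM in PBS animals, also without overlap (1.2 ± 0.31, adjusted p = 0.00422). Bst2 had 3.57, 3.05, 3.02 and 4.43 CPM, all below the 6.74, 10.3, 9.26 and 6.97 CPM of PBS animals (−1.24 ± 0.30, adjusted p = 0.00199).

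None of the 7 GTPases was called in this comparison, and their median was 0.17. Igtp had 7.73, 5.74, 7.54 and 8.8 CPM in cachectic 8025 animals and 7.39, 8.48, 8.94 and 18.7 CPM in PBS animals (−0.54 ± 0.34, adjusted p = 0.243). Of the 8 calls, 5 were made in each fit without 1 library (Zbp1, Oas2, Bst2, Samd9l, Trim30a). Oasl2 lost its call without cachectic animal 3 (0.76, adjusted p = 0.111), Xaf1 in 2 of the 8 fits and Parp14 in 5.

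In whole liver nuclei of cachectic 8025 animals 6 members were higher (Zbp1, Oas1a, Oas2, Oas3, Oasl2, Trim30a) and 2 lower (Bst2, Cxcl9), beside 36.6% of all genes called in either direction (18.7% higher and 17.9% lower), so that the share of members called was below that of all genes. The higher members thus included 4 of the 5 Oas genes. Oas2 had 15.6, 20.4, 25.5 and 37.4 CPM, against 7.91, 11.9, 8.75 and 7.86 CPM in PBS animals (1.44 ± 0.25, adjusted p = 3.48e-05). Zbp1 had 11.3, 17.0, 22.0 and 21.3 CPM, against 2.09, 3.43, 6.05 and 5.79 CPM in PBS animals (2.04 ± 0.41, adjusted p = 0.000231). Cxcl9, a T cell attractant induced by interferon gamma, had 0.392, 0.312, 0.290 and 0.151 CPM, against 1.24, 0.936, 1.57 and 3.17 CPM in PBS animals (−2.55 ± 0.45, adjusted p = 4.56e-05). In none of these genes did the groups overlap. All but Oas1a and Oas3 of the 8 calls were made in each fit without 1 library.

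**Figure D4:**
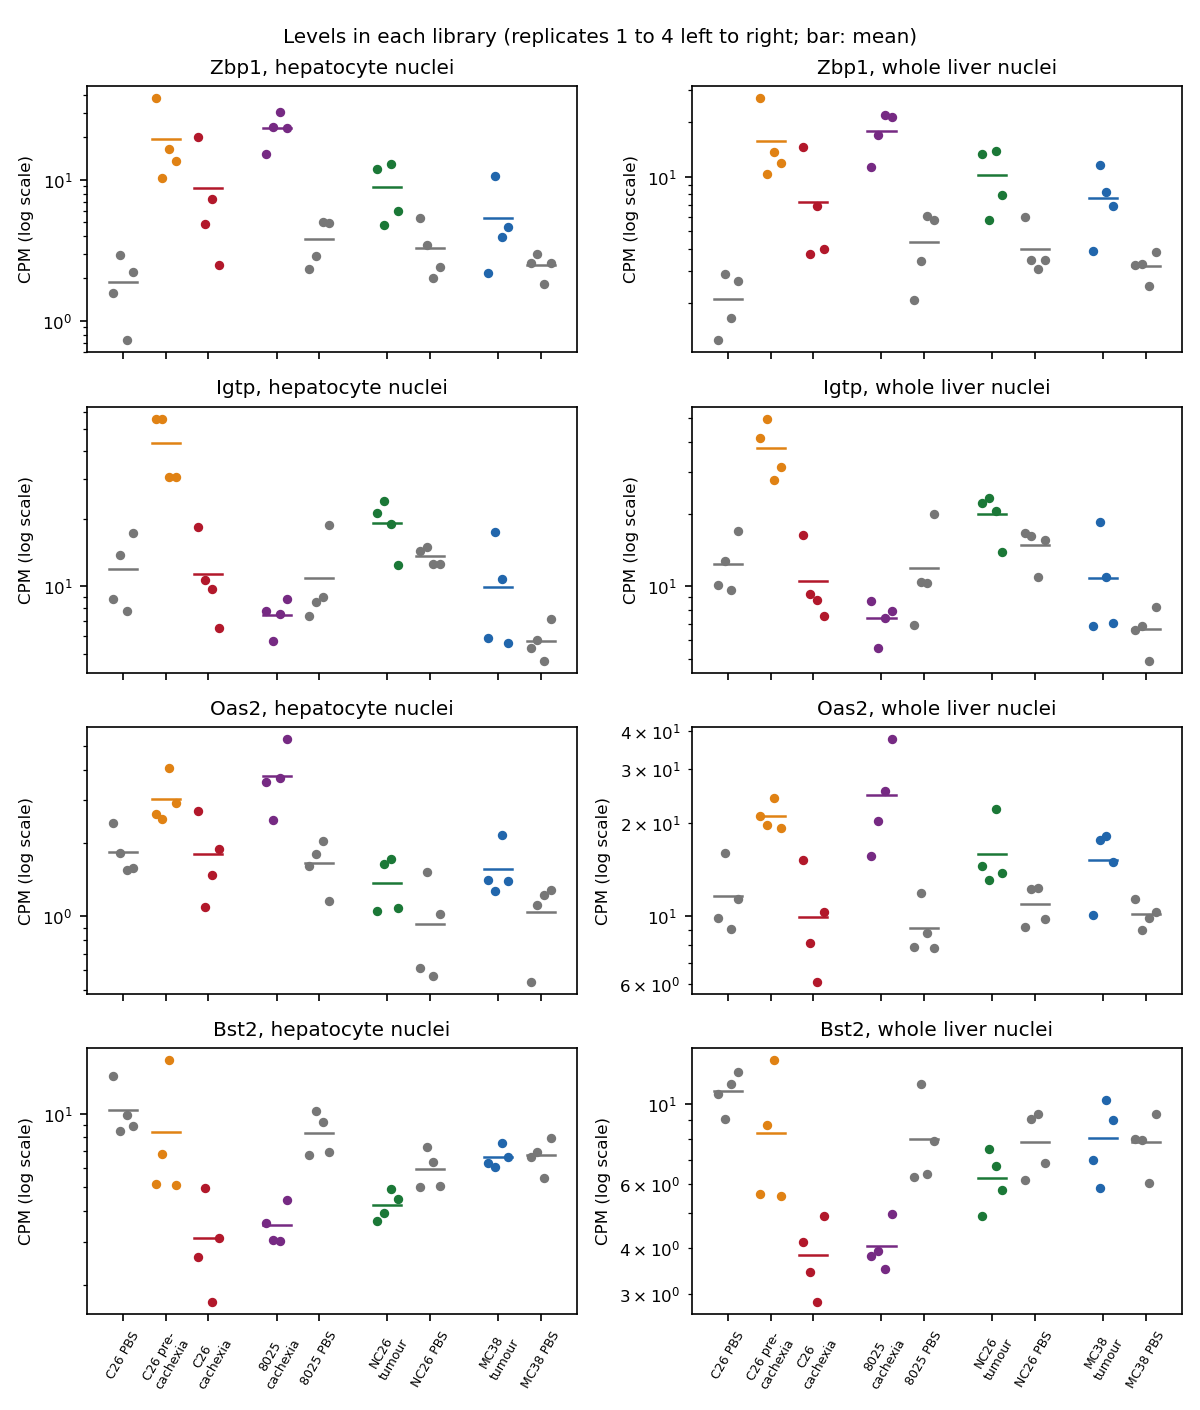
CPM (log scale, y axes) of Zbp1, Igtp, Oas2 and Bst2 in every library of the 9 groups, in hepatocyte nuclei (left) and whole liver nuclei (right), with the mean as a bar. Zbp1 is above PBS in 8025 cachexia (15.2 to 30.4 against 2.33 to 5.06 CPM in hepatocyte nuclei), Igtp peaks at C26 pre-cachexia, and Bst2 is below PBS in both cachexia groups.

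For weight-stable tumours edgeR's quasi-likelihood test in the fit of all groups gave no call among the members. In NC26 animals edgeR's quasi-likelihood test called 0 of 38 in hepatocyte nuclei (0.324% of all genes were called, 0.316% higher and 0.00753% lower) and 0 of 39 in whole liver nuclei (0.728% of all genes, 0.706% higher and 0.0218% lower), and 11 members in each fraction had an unadjusted p under 0.05. DESeq2 called 0 in hepatocyte nuclei and 1 in the other fraction, and edgeR fitted on the NC26 cohort alone called 1 and 2. The log2 fold changes were above 0 in 35 of 38 and 37 of 39 members, with medians of 0.47 and 0.43, beside 0.00 and 0.01 over all genes. In hepatocyte nuclei 11 of 38 members had all 4 NC26 values above all 4 PBS values, where 4.64% of all genes did. Xaf1 was one, with 19.4, 14.0, 15.8 and 14.1 CPM in NC26 animals and 7.93, 6.51, 8.59 and 9.03 CPM in PBS animals (0.98 ± 0.32, adjusted p = 0.208). Usp18 was another, with 14.5, 10.6, 18.4 and 10.2 CPM in NC26 animals and 6.06, 6.22, 5.33 and 7.63 CPM in PBS animals (1.09 ± 0.37, adjusted p = 0.210); both were named after their values were seen. Marker sums of other cells also differed in NC26 animals, without overlap: the Kupffer cell and macrophage genes summed to 549 to 648 CPM in NC26 and 404 to 487 CPM in PBS whole liver nuclei, and the T and NK cell genes to 14.1 to 18.9 CPM in NC26 and 5.69 to 10.2 CPM in PBS hepatocyte nuclei. The Kupffer sums in hepatocyte nuclei overlapped (93.2 to 180 CPM in NC26 and 92.1 to 160 CPM in PBS animals). So did the T and NK cell sums in whole liver nuclei (34.0 to 41.4 CPM in NC26 and 24.9 to 40.6 CPM in PBS animals). Sums of bile duct cell genes were above PBS without overlap in both fractions (210 to 249 against 128 to 174 CPM in hepatocyte nuclei). In whole liver nuclei the monocyte and dendritic cell sums (30.5 to 39.4 against 19.8 to 29.2 CPM) and the neutrophil sums were too. The part of these cells in the shift was not tested.

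In MC38 animals 0 of 38 members in hepatocyte nuclei and 0 of 39 in whole liver nuclei were called by edgeR and 0 by DESeq2 in each, where 0% of all genes were called by edgeR in either fraction. Unadjusted p was under 0.05 in 5 and 8 members. The log2 fold changes were above 0 in 35 of 38 and in 39 of 39, with medians of 0.24 and 0.28. MC38 animal 2 was the highest in Zbp1, with 2.20, 10.6, 3.92 and 4.64 CPM in MC38 animals 1 to 4 of hepatocyte nuclei and 2.59, 2.99, 1.84 and 2.56 CPM in PBS animals. The Kupffer cell and macrophage genes summed to 152 to 216 CPM in MC38 and 85.4 to 133 CPM in PBS hepatocyte nuclei, without overlap, and to 455 to 657 CPM in MC38 and 376 to 497 CPM in PBS whole liver nuclei, with overlap; here too their part was not tested.

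Whether tumour effects differed was tested as differences between log2 fold changes. In hepatocyte nuclei no member was called for C26 cachexia against NC26, for 8025 against MC38 or for 8025 against C26 cachexia by edgeR (1.89% of all genes were called for the first difference, 7.21% for the second, 4.19% higher and 3.02% lower, and 0.957% for the third); unadjusted p was under 0.05 in 6, 7 and 7 members, and DESeq2 called 1, 1 and 0. Without cachectic C26 animal 1, edgeR called Gbp3 and Rsad2 lower for C26 cachexia against NC26 and Oasl2 higher for 8025 against C26 cachexia. It then called 250 and 102 genes among all tested for these differences. In whole liver nuclei the effect of C26 cachexia was below that of NC26 in 4 of 39 members (3.4% of all genes were called, 1.73% lower and 1.67% higher), which were Oas1a (−1.56 ± 0.35, adjusted p = 0.0100), Oasl2 (−1.39), Bst2 (−1.17) and Ifit2 (−1.16). Oas1a and Oasl2 were called in all 16 fits without 1 library; Bst2 lost its call in 12 of them and Ifit2 in 2. The count was 11 without cachectic C26 animal 1 (543 among all genes), 2 without NC26 PBS animal 1 and 9 with DESeq2, which held all 4. Oas1a had 5.46, 2.27, 2.25 and 2.72 CPM in cachectic C26 animals and 7.18, 5.81, 4.68 and 5.99 CPM in their PBS animals. In NC26 animals it had 6.06, 5.78, 9.95 and 7.53 CPM, against 4.94, 5.11, 4.02 and 4.34 CPM in their PBS animals. It was thus low in 3 of 4 cachectic C26 animals and above PBS in all 4 NC26 animals.

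The 8025 effect was below that of MC38 in 3 of 39 members of whole liver nuclei, a share near the 5.96% of all genes called lower. They were Cxcl9 (−2.73 ± 0.61, adjusted p = 0.0031), Igtp (−1.41) and Bst2 (−1.02). Cxcl9 was called in all 16 fits without 1 library, while Igtp lost its call in 4 and Bst2 in 10. Cxcl9 was the only call without 8025 cachectic animal 2, 8025 PBS animal 4 or MC38 PBS animal 3. The 8025 effect was above that of C26 cachexia in 4 members (4.6% of all genes were called higher). These were Oas2 (1.66 ± 0.35, adjusted p = 0.0036), Oasl2 (1.66), Oas1a (1.58) and Trim30a (0.82), 3 of them Oas genes. Trim30a lost its call without 8025 cachectic animal 3 (adjusted p = 0.0547). Without cachectic C26 animal 1 the count was 8 (949 among all genes, in either direction). The C26 and 8025 models differ in strain as well as in tumour, so the parts of strain and tumour in this difference cannot be told apart.

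Per kilobase of gene span, the members' levels in PBS animals ran over a wide range. In hepatocyte nuclei the highest were Stat2 at 6.76 CPM per kb, Iigp1 at 5.37 and Irf9 at 2.97, and the lowest were Gbp2 at 0.0365, Ifit2 at 0.0326 and Oas3 at 0.00652. Iigp1 (6.2) and Stat2 (5.87) led in whole liver nuclei, and Oas3 was again lowest (0.0453). Factors were thus 2 of the 3 highest members in hepatocyte nuclei, and an Oas gene was the lowest.

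The members differed widely in how hepatocyte nuclei compared with whole liver nuclei in the 16 PBS animals, which all gave both fractions. Of 39 members, 16 were lower and 3 higher in hepatocyte nuclei. Together they were 19, a share near the 50.9% of all genes called in either direction. Among all genes 24.5% were lower and 26.4% higher, so members were called lower more often than all genes and higher less often. These calls and shares are from the fit with no block, which leaves out the pairing. With the animal as a block all 19 kept their call and 26 were called. No share of all genes is given for that fit, so the 26 cannot be set against one. The lowest were Oas2 at 13.9% of its whole liver level, Ifit2 at 16.7%, Oas3 at 16.9%, Trim30a at 17.4%, Oasl2 at 18.2% and Oas1a at 20.0%. Those shares are close in value to the ones of Stab2, Clec4f and Ptprc given above. The macrophage genes Adgre1 and Csf1r stood at 12.4% and 17.7%, and the T cell gene Cd3e at 34.0%. Which cells hold the RNA of these members was not tested. Oas2 ranged from 0.540 to 2.42 CPM around a median of 1.40 in hepatocyte nuclei, against 7.86 to 16 CPM around 9.81 in whole liver nuclei. The GTPases Igtp and Irgm2 stood at 100%, Irf1 at 102%, Bst2 at 98.9% and Usp18 at 95.1%. None of these was called in the fit with no block. Stat2 (127%), Irf9 (121%) and Parp9 (111%) were called higher, Parp9 not without the animals of replicate 2 (adjusted p = 0.0594); Parp9 overlaps Dtx3l over 558 bases on the opposite strand.

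**Figure D5:**
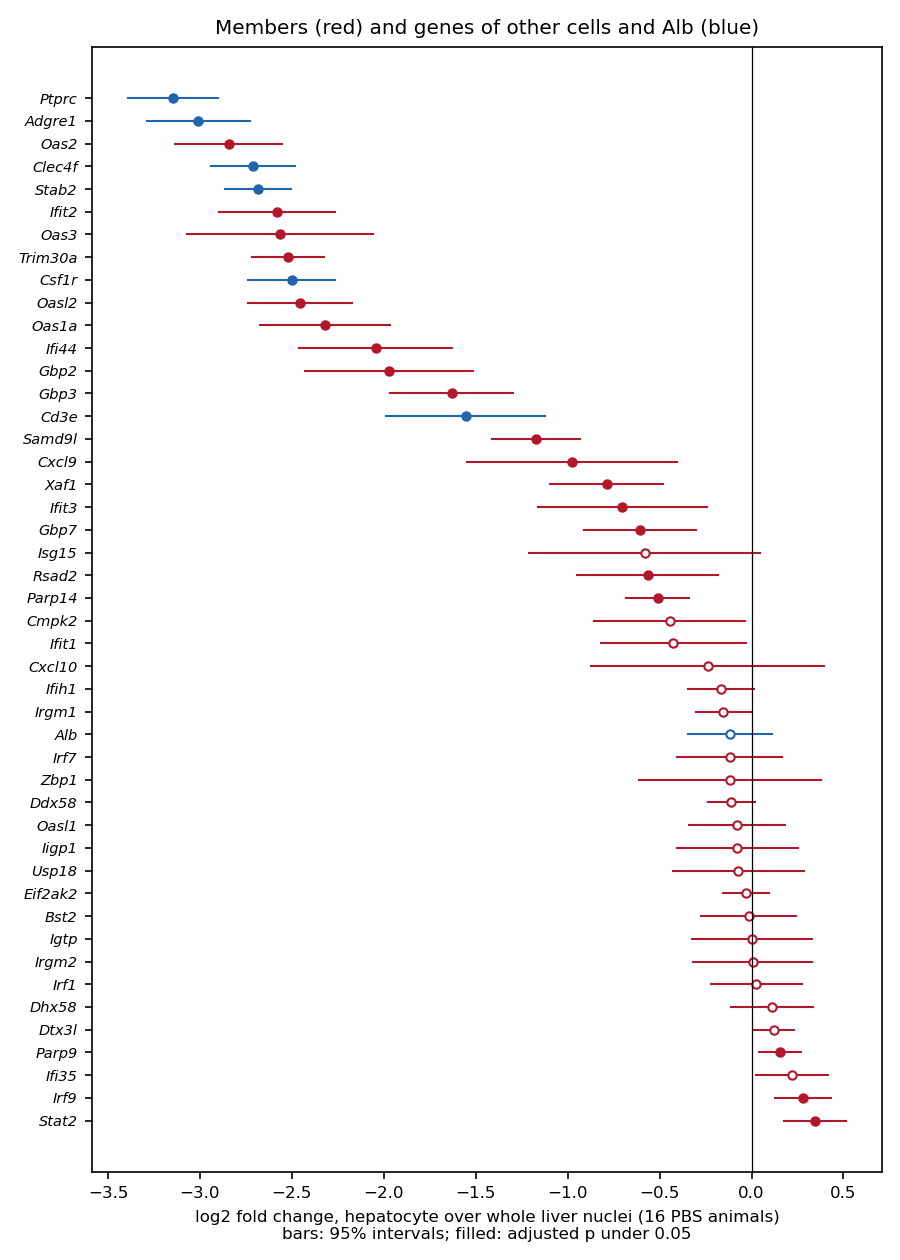
log2 fold change of hepatocyte over whole liver nuclei in 16 PBS animals (x axis) for each member (red) and for genes of other cells and Alb (blue), with bars for 95% intervals and filled points for an adjusted p under 0.05. The Oas genes other than Oasl1 lie among the genes of endothelium and leukocytes, while Igtp and Bst2 lie at 0 and Stat2 above it. Which cells hold their RNA was not tested.

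The edgeR fit with no block leaves out that both fractions come from the same animals. In that fit no member's tumour effect was called different between the fractions, at C26 cachexia, C26 pre-cachexia or 8025 cachexia. Of all genes 0%, 0% and 0.0427% were called. Unadjusted p was under 0.05 in 2, 1 and 1 members, and DESeq2, also with no block, called 0 each time. With the animal as a block, calls were Parp14 (0.43), Samd9l (0.76) and Xaf1 (0.96) at C26 cachexia (without animal 1, Xaf1 at 0.93, adjusted p = 0.00273, while Parp14 at 0.42, adjusted p = 0.0504, and Samd9l at 0.73, adjusted p = 0.105, lost theirs), Xaf1 (0.82) at pre-cachexia, and Samd9l (0.70) and Xaf1 (0.60) in 8025 animals. In each of these the log2 fold change was the higher one in hepatocyte nuclei, and Xaf1 was called in all 3 comparisons. The shares of all genes given above are from the fit with no block. Without animal 1, 42 genes among all tested were called at C26 cachexia with the block and 0 with no block. Xaf1 had 22.5, 6.96, 10.8 and 6.53 CPM in hepatocyte nuclei of cachectic C26 animals, against 6.10, 7.95, 4.41 and 6.56 CPM in PBS animals. The whole liver nuclei of cachectic animals had 24.9, 8.19, 11.2 and 8.78 CPM of it, against 15.1, 16.4, 10.8 and 14.0 CPM in PBS animals.

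Some members differed between the 2 strains before any tumour. In hepatocyte nuclei of PBS animals 5 members were higher in BALB/c than in C57BL/6N and 6 lower, of 38. This stood beside 41.2% of all genes called in either direction (20.5% higher and 20.7% lower). In whole liver nuclei 7 were higher and 5 lower of 39, beside 39.6%. The share of members called was thus below that of all genes in both fractions. Each strain had 8 PBS animals from 2 cohorts. Oasl1, a catalytically inactive Oas-like protein, had 1.8 to 2.84 CPM around a median of 2.37 in BALB/c and 5.60 to 9.45 CPM around 6.42 in C57BL/6N hepatocyte nuclei, without overlap (−1.59 ± 0.18, adjusted p = 2.5e-08). Trim30a was lower in BALB/c in both fractions (−1.32 and −0.59), and Ifi44 was higher in whole liver nuclei, at 3.90 to 9.28 CPM in BALB/c and 1.92 to 3.48 CPM in C57BL/6N (1.38 ± 0.24, adjusted p = 3.8e-05).

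Further genes of the pathway, from lists that hold no member, were counted in the same comparisons. Of 50 further interferon-induced genes, 22 were higher and 0 lower at pre-cachexia in hepatocyte nuclei, 7 higher and 2 lower at cachexia, and 10 higher and 3 lower in 8025 cachexia. Of all genes 4.78%, 12.2% and 16.2% were called higher in these comparisons, so that the share of 44% (higher) before cachexia was above that of all genes, and the shares called higher at C26 cachexia, 14%, and in 8025 cachexia, 20%, were near it. Without C26 cachectic animal 1 the counts at cachexia were 3 higher and 5 lower (9.08% and 7.89% of all genes). The 3 with the smallest p at pre-cachexia were Parp11 (1.06), Herc6 (1.24) and Mx2 (1.06), and at C26 cachexia they were Apol9b (−1.32), Apol9a (−1.26) and Parp11 (0.74). Against pre-cachexia, 15 of 50 were lower at cachexia in hepatocyte nuclei and 34 of 51 in whole liver nuclei, with 0 higher in each (4.27% and 6.94% of all genes were called lower). Without animal 1 these counts were 23 and 37 lower, with 0 and 1 higher. Of further factors, Nlrc5 (1.44), the activator of MHC class I genes, and Irf5 (1.27) were higher at pre-cachexia. Nlrc5 was still higher at cachexia (1.11, and 0.95 without animal 1).

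Among feedback inhibitors, Socs3, which is also induced by interleukin-6 signalling, was higher at pre-cachexia (2.85), at C26 cachexia (2.69) and in 8025 cachexia (3.41). Of 9 receptors and kinases, 2 were called higher at pre-cachexia (Ifngr2, 0.77, and Il10rb, 0.95), 1 at C26 cachexia (Ifnar2, 1.08; not called without animal 1, 0.85, adjusted p = 0.0731) and 3 in 8025 cachexia, where Ifnlr1, the receptor of lambda interferons, had a log2 fold change of 3.42. Among all genes 4.78%, 12.2% and 16.2% were called higher in these 3 comparisons. The 11.1% of receptors and kinases called higher at C26 cachexia was near that share. Of 13 sensing adaptors, Aim2 was higher in all 3 comparisons (1.32, 1.22 and 1.91), and Mavs, the adaptor of RIG-I and MDA5 on mitochondria, was lower at C26 cachexia (−0.63) and in 8025 cachexia (−0.92). Socs3, Aim2 and Mavs kept their calls at C26 cachexia without animal 1. No gene of the interferon ligand list passed the filter in hepatocyte nuclei. Il27 was the 1 that did in whole liver nuclei; it encodes a subunit of interleukin-27 and no interferon; its log2 fold change was 0.60 at pre-cachexia (adjusted p = 0.366) and −0.26 at C26 cachexia (adjusted p = 0.732). The interferon genes on the list could not be followed at this depth.

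Markers of other liver cells moved in the same comparisons, and their part in the results was not tested. The 7 hepatocyte genes summed to 10160 to 13526 CPM in hepatocyte nuclei of C26 PBS animals, 6057 to 8367 CPM at pre-cachexia and 11324 to 21675 CPM at cachexia, so that the pre-cachexia sums, where the members were higher, lay below both other groups. At pre-cachexia 1 of the 7 hepatocyte genes was called lower, beside 2.94% of all genes. Their sums in whole liver nuclei were 12320 to 19271 CPM in PBS animals, 6627 to 9395 CPM at pre-cachexia and 13673 to 20750 CPM at cachexia. Monocyte and dendritic cell genes, of which 6 of 10 passed the filter, summed to 2.53 to 5.45 CPM in hepatocyte nuclei of PBS animals, 6.57 to 9.96 CPM at pre-cachexia and 10.6 to 14.4 CPM at cachexia, without overlap, and to 12.3 to 16.4 CPM in 8025 cachexia against 3.96 to 5.09 CPM in its PBS animals. In hepatocyte nuclei 7 of 13 Kupffer cell and macrophage genes were higher at C26 pre-cachexia, 7 at cachexia and 11 in 8025 cachexia. Of all genes 4.78%, 12.2% and 16.2% were called higher there. The summed level of the 13 was 115 to 228 CPM in C26 PBS animals, 158 to 247 CPM at pre-cachexia and 165 to 218 CPM at cachexia, and 184 to 244 CPM in 8025 cachexia against 124 to 172 CPM in its PBS animals. The sum in whole liver nuclei was 488 to 653 CPM in PBS animals, 748 to 957 CPM at pre-cachexia and 652 to 888 CPM at cachexia. All 6 B cell genes were lower at cachexia than at pre-cachexia in whole liver nuclei (6.94% of all genes were called lower), with sums of 75.4 to 106 CPM in PBS animals, 124 to 152 CPM at pre-cachexia and 48.0 to 121 CPM at cachexia. Of 12 T and NK cell genes 8 passed the filter in whole liver nuclei and 4 in hepatocyte nuclei, and 3 of the 8 were lower at cachexia than at pre-cachexia, with sums in whole liver nuclei of 25.7 to 46.1 CPM in PBS animals, 35.8 to 69.2 CPM at pre-cachexia and 16.1 to 37.6 CPM at cachexia. The neutrophil genes, of which 5 of 5 tested were higher in 8025 cachexia, summed to 42.7 to 62.0 CPM there in whole liver nuclei, against 3.46 to 6.71 CPM in PBS animals. In that comparison 18.7% of all genes were called higher.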

How the data were processed

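RNA was sequenced from hepatocyte nuclei and whole liver nuclei of 36 mice, with a stranded kit, no selection for poly-adenylated RNA and 50-base paired-end reads, per the labels' protocols. The deposited values are raw counts of each gene, introns included, per the file headers; the authors used STAR 2.4.2a, DESeq2 1.24.0 and the mm10 genome, per the submitters' processing notes, and how strand was used in counting is not stated. Introns were counted, so long genes gather more counts, and levels were compared between genes only per kilobase of span.

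Groups came from the labels, which give each animal its own ID, so replicates are separate animals. Each fraction was fitted with edgeR 4.0.16 (TMM normalization, filterByExpr, quasi-likelihood F test, 9 groups) in R 4.3.3, and both fractions in 1 fit of 18 groups; p-values were Benjamini-Hochberg adjusted over all 13274 (hepatocyte), 13738 (whole liver) or 14054 (both) genes tested and called under 0.05. Errors beside log2 fold changes are standard errors, each group has n = 4, and CPM uses TMM library sizes. The fit was tested on simulated counts with known fold changes. The 40 genes and the other lists were chosen with earlier results of these data known. Values per sample were given by a rule: the 3 called members with the largest change and a mean of at least 1 CPM per tumour comparison, plus Stat2, Irf1, Irf7, Irf9, Isg15, Gbp2 and Cxcl10; Xaf1, Oas1a, Iigp1 and the members given per sample for NC26, MC38 or without a call were added after their values were seen.

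The 2 fractions of an animal are paired by its ID: deviations from group means correlated over 0.1 in 35 of 36 animals (median r = 0.608). Alternatives were DESeq2 1.42.0, its size factors, no filter, the compared cohorts alone, blocks, 5 genes with rRNA-like reads left out, and each library left out. TMM factors ranged from 0.900 to 1.14 and reads like rRNA made up 0.944% to 8.31% of a library.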

Additional observations from a re-analysis of the deposited data

Results flagged for a closer look

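By chance, 1 of 4 animals stands further from the other 3 than Dixon's 95% critical value allows in about 1 of 20 sets. Here 4 of 72 sets passed that value, near the share that chance gives. They were the member score of C26 cachectic animal 1 in whole liver nuclei (0.224, against −0.655 to −0.528 in the others), the member score of NC26 animal 3 in whole liver nuclei (0.675, against 0.242 to 0.303), Cxcl10 in hepatocyte nuclei of pre-cachexia animal 2 (1.61 CPM, against 0.585 to 0.692 CPM) and Isg15 in whole liver nuclei of C26 cachectic animal 1 (0.468 CPM, against 0.155 to 0.190 CPM).

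In 11 cases the effects of 2 tumours in whole liver nuclei differed by the test of the difference itself. C26 cachexia against NC26 gave log2 differences of −1.16 for Ifit2, −1.56 for Oas1a, −1.39 for Oasl2 and −1.17 for Bst2. The 8025 effect against that of MC38 gave −1.41 for Igtp, −1.02 for Bst2 and −2.73 for Cxcl9. There the share of members called lower was near that of all genes, and only Cxcl9 kept its call in every fit without 1 library. The 8025 effect against that of C26 cachexia gave 1.58 for Oas1a, 1.66 for Oas2, 1.66 for Oasl2 and 0.82 for Trim30a.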

How the results depend on the processing

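No called value changed direction under any alternative run. Of the 172 called gene values, 171 kept their call with DESeq2's test, 167 with its size factors, 168 without 5 genes with rRNA-like reads, 160 with no filter on low counts and 145 when only the compared cohorts were fitted. Leaving out 1 library at a time kept 1312 of 1572. The numbers of members called moved as follows. With DESeq2, 1 member was called in hepatocyte nuclei for C26 cachexia against NC26 and 1 for 8025 against MC38; in whole liver nuclei it called 1 for NC26 against PBS and 9 for C26 cachexia against NC26. With only the compared cohorts, hepatocyte nuclei gave 1 for NC26 against PBS, 11 for C26 cachexia against pre-cachexia and 1 for 8025 against MC38, and whole liver nuclei gave 2 for NC26 against PBS. With the animal as replicate block, 3 members at C26 cachexia, 1 at pre-cachexia and 2 in 8025 cachexia differed in effect between the fractions, and all 19 called differences between the fractions in PBS animals kept their call. Without C26 cachectic animal 1, an alternative chosen after seeing the data, 1 member differed in effect between the fractions at C26 cachexia with that block and 0 without it.

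Replicate numbers do not pair animals of different groups: same-numbered animals correlated over 0.1 in 11 of 48 pairs (median r = 0.0107). With the number as replicate block, 130 of 153 values kept their call and 1 member was called in whole liver nuclei for 8025 against MC38. Leaving out 1 library moved the count in hepatocyte nuclei between 4 and 11 for C26 cachexia against PBS, 8 and 24 for cachexia against pre-cachexia, 0 and 2 for C26 against NC26, and 0 and 1 for 8025 against MC38 and against C26. In whole liver nuclei it ran between 7 and 15 for C26 cachexia, 13 and 24 for pre-cachexia, 2 and 11 for C26 against NC26, 1 and 3 for 8025 against MC38, and 4 and 8 for 8025 against C26. The cause of these moves was not tested. Depth limits Isg15, Oas3, Gbp2 and the chemokines most, since they have few counts in hepatocyte nuclei; intervals cover 4 animals per group.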
